A study of Mus musculus with 6 samples.

Results

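The 34 genes described here encode the enzymes, transporters and regulators that take up glucose, break it down to pyruvate and lactate, and store it as glycogen. They were chosen by name, from a list that spans the steps of these pathways, and all 34 are among the 35275 genes of the deposited tables. Poly(A) RNA was sequenced from whole spinal cord of 3 Sox2 cKO and 3 control (Ctrl) C57BL/6 mice. In Sox2 cKO mice, Cre recombinase under a mouse Gfap promoter (mGfap-Cre) deletes both floxed alleles of Sox2, a transcription factor of neural progenitors and astrocytes. The promoter is active mainly in astrocytes, whereas the RNA came from all cells of the cord. The Ctrl mice carry mGfap-Cre with wild-type Sox2 according to the sample labels, floxed Sox2 without Cre according to the study's methods, and either of these according to the design text. Their age is postnatal day 90 in the labels and day 80 in the protocol. Libraries are called by the numbers of their columns, and every set of values below runs in the order Ctrl libraries 2, 4 and 6, then Sox2 cKO libraries 1, 3 and 5.

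In the adult central nervous system, astrocytes store nearly all of the glycogen and are thought to pass lactate to neurons and axons through monocarboxylate transporters. Many steps of glycolysis are carried by isozymes whose use differs between cell types. Aldoc and Pygm are known as astrocyte-enriched forms in brain, Eno2 is the neuronal enolase, and Pygb, the brain form of glycogen phosphorylase, is made in astrocytes and neurons. Many of these genes are known targets of the hypoxia factor HIF-1. In whole tissue, fewer cells of a type and less RNA in each cell cannot be told apart.

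Sox2 itself was examined first. It measured 19.9, 14.8 and 29.5 CPM in Ctrl and 3.16, 2.69 and 2.98 CPM in Sox2 cKO, in counts scaled to TMM-normalized library size (CPM). The groups did not overlap, with a log2 fold change of -2.86 ± 0.24 (± is the standard error for fold changes) and an adjusted p of 9.56e-04 (edgeR's quasi-likelihood test with Benjamini-Hochberg adjustment over all genes tested). Libraries held between 21507911 and 28392184 counts. The Ctrl and Sox2 cKO libraries also differed in markers of cell types, among them astrocytes, the main target of the deletion. The study reports SOX2 binding at some of the astrocyte markers, such as Gfap and Slc1a2. Of 10 astrocyte markers 6 were lower in Sox2 cKO and 0 were higher (0 at an unadjusted p under 0.05 and 0 with DESeq2), and their summed FPKM was between 1593 and 1986 in Ctrl and between 1096 and 1177 in Sox2 cKO. Of 10 neutrophil markers 8 were tested and 7 were higher, with summed FPKM of 18.3 to 31.6 in Ctrl and 39.3 to 142 in Sox2 cKO. Of 9 skeletal muscle markers 8 were tested and 1 was higher, and they summed to 5.63 to 12.5 FPKM in Ctrl but to 30.3, 5.45 and 63.4 FPKM in Sox2 cKO libraries 1, 3 and 5. Endothelial markers summed to 79.1 FPKM in Sox2 cKO library 1 and to between 44.8 and 48.7 FPKM in the others. When the trend of fold changes with gene length, described below, was removed, 3 astrocyte markers were lower and 0 were higher. In that fit 5 neutrophil markers and 0 skeletal muscle markers were higher. None of the markers had 0 counts in all 6 libraries. The part of these markers in the results below was not tested.

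Windows before the starts of the glycogen genes Ppp1r3c and Pygb are shown because these are the called members of glycogen metabolism, Ppp1r3c higher and Pygb lower. Both are written 5′ to 3′ on the strand of the gene, from 250 to 71 bases before the RefSeq start (GRCm38.p6). Capitals mark ACGTG, the core of the HIF-1 element, and CAAAG, a core of SOX motifs, searched on both strands. CACGTG holds ACGTG on both strands.
Ppp1r3c, chr19:36736675-36736854, minus strand: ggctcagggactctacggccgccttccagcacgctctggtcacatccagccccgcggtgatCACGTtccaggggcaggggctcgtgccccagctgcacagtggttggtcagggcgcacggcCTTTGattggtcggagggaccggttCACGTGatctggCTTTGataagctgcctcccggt
Pygb, chr2:150786546-150786725, plus strand: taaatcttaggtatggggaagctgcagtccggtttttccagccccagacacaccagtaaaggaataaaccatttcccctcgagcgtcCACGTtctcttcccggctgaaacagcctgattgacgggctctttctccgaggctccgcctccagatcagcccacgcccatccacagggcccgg
The Ppp1r3c window held ACGTG in 2 places and CAAAG in 2 places. The Pygb window held ACGTG in 1 place and CAAAG in none of its 180 bases. Among all 32851 RefSeq windows of this length, 11.3% held ACGTG and 39.4% held CAAAG. RefSeq entries were matched for 32 of the 34 members, with 49 windows, of which 16 (32.7%) held ACGTG and 15 (30.6%) held CAAAG. Some windows of 1 gene overlap and share a site. ACGTG was in 2 of 6 windows of members called higher, 1 of 5 of those called lower and 13 of 38 of those not called. For CAAAG these were 3 of 6, 2 of 5 and 10 of 38. Slc2a3 and Slc16a7 were not matched. A match is only a run of letters, and whether any factor binds there was not measured in these libraries.

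The levels of the members spanned 3 orders of magnitude. FPKM, in which counts are scaled to gene length and library total, was highest for Gapdh (957 over the 6 libraries), Pkm (748), Aldoa (720.1), Aldoc (550.5) and Ldhb (414). It was lowest for Pygl (3.09), Slc16a7 (1.82), Hk2 (1.11) and Slc16a3 (0.748). The main isozyme of several families made most of the FPKM of its family in both groups. Hk1 made 98.4% ± 0.299 of the hexokinase FPKM in Ctrl and 98.4% ± 0.274 in Sox2 cKO (SD, n = 3). Pygb made 66.5% ± 1.15 of the glycogen phosphorylase FPKM in Ctrl and 64.9% ± 2.42 in Sox2 cKO, and Pygm nearly all of the rest. Ldhb made 85.8% ± 1.69 of the lactate dehydrogenase FPKM in Ctrl and 88.3% ± 1.35 in Sox2 cKO. Slc16a1 made 86.0% ± 2.44 of the FPKM of the 3 monocarboxylate transporters in Ctrl and 88.0% ± 1.35 in Sox2 cKO.

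**Figure D1:**
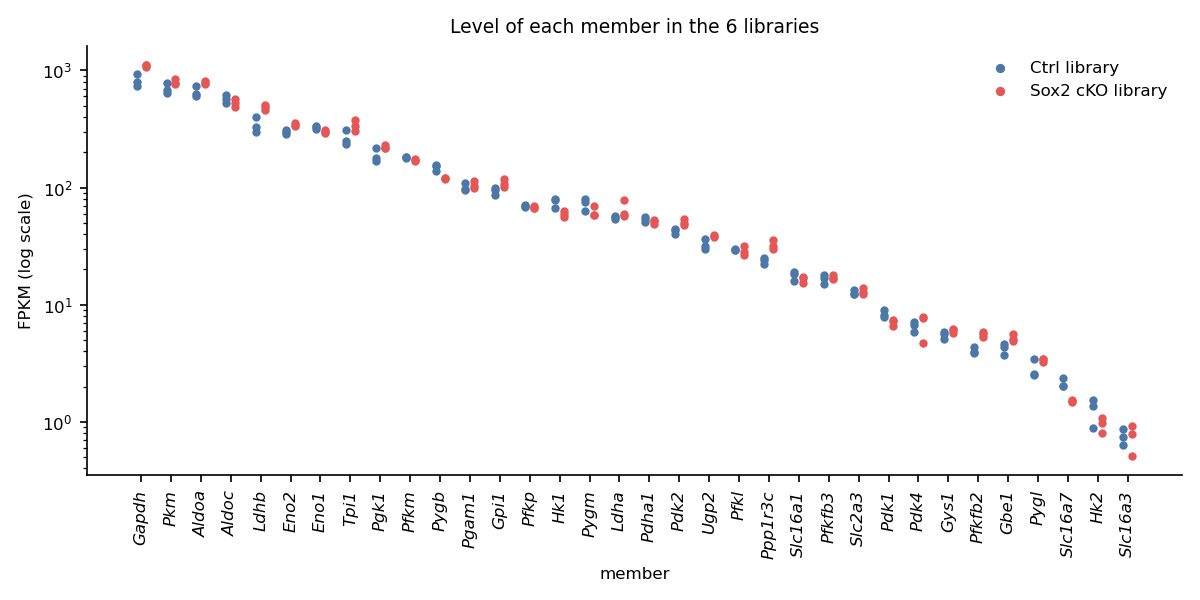
FPKM of each of the 34 members on a log scale, with 1 point for each of the 3 Ctrl (blue) and 3 Sox2 cKO (red) libraries, ordered by the mean of the 6 libraries. The order runs from Gapdh at a mean of 957 to Slc16a3 at a mean of 0.748 FPKM.

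All 34 members passed the filter on low counts and were tested. In Sox2 cKO spinal cord 4 of them were higher, namely Ldhb, Gapdh, Pfkfb2 and Ppp1r3c, and 4 were lower, namely Hk1, Pygb, Slc16a7 and Pdk1. The 8 members make 23.5% of the list, and 24.6% of all 16137 genes tested were called, 12.2% higher and 12.4% lower. In this fit the share of members called was thus near the background. The median log2 fold change of the members was -0.04, against 0.02 over all genes tested, and the median size of the change was 0.17 against 0.25. For 19 members the CPM of Ctrl and Sox2 cKO were apart (55.9%), 9 higher and 10 lower in Sox2 cKO, against 44.7% of all genes tested. The members were also more abundant, with a median of 129 in mean CPM against 18.9 over all genes tested. Neither the size of change nor the share of groups apart was compared with genes of like level. DESeq2, the test named in the study's methods, called the same 8 members and also Eno1, Pfkm and Pygm as lower, with 27.7% of all genes called.

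Fold changes in these libraries followed gene length, which bears on every member. Across 20 bins of length, the median log2 fold change ran from 0.35 in the shortest bin, with a median length of 641 bases, to -0.36 in the longest, with a median of 9460 bases. Of the 11 shortest members, 9 had a positive fold change, and of the 11 longest only 1, Pfkfb2. When the trend with length was removed from each library, 13.1% of all genes were called, 6.08% higher and 6.99% lower. Of the 34 members 7 were called (20.6%), 2 higher (5.88%) and 5 lower (14.7%). Among the members, Pfkfb2 and Ppp1r3c remained higher and Hk1, Pygb and Slc16a7 remained lower, whereas Gapdh, Ldhb and Pdk1 lost their calls. Eno1 and Pfkm were called lower only with this correction among the edgeR fits of all 6 libraries, apart from Eno1 with a correction for GC content.

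**Figure D2:**
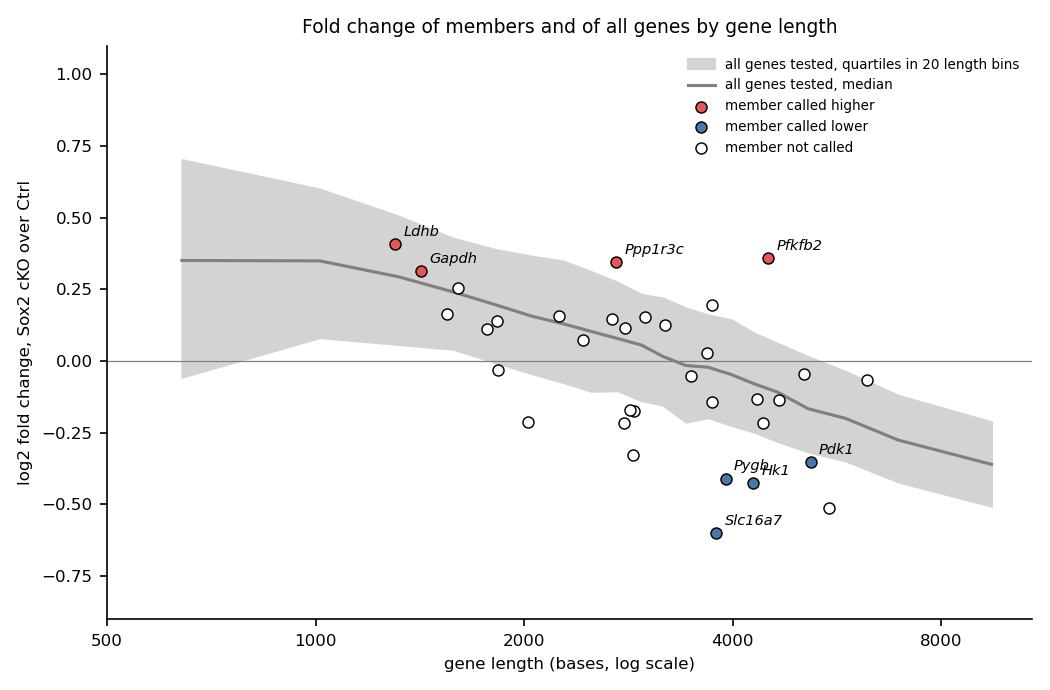
Log2 fold change (Sox2 cKO over Ctrl) against gene length in bases on a log scale. The line and band give the median and quartiles of all genes tested in 20 length bins, and points are the 34 members. Ldhb and Gapdh lie near the line, Pfkfb2 and Ppp1r3c lie above the band, and Hk1, Pygb, Slc16a7 and, by a small margin, Pdk1 lie below it.

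The calls also depended on single libraries. With edgeR, 0 members were called without Ctrl library 4, without Sox2 cKO library 1 or without Sox2 cKO library 3, where 11, 10 and 9 members had an unadjusted p under 0.05. In these fits 0.159%, 0.0485% and 8.31% of all genes tested were called. DESeq2 called 4, 7 and 5 members in the same 3 sets of libraries, with 14.5%, 17.2% and 20.7% of all genes. Without Ctrl library 2, edgeR called 16 members, 8 higher and 8 lower, and 36.9% of all genes. Without Ctrl library 6 it called 2 members, Ppp1r3c and Slc16a7, and 6.54% of all genes. Without Sox2 cKO library 5 it called 8 members, with Pygm in place of Gapdh, and 16.3% of all genes. The direction of each of the 8 called members was the same in all 6 edgeR fits that left out a library. Ldhb, Hk1 and Pygb were called in 6 of the 6 DESeq2 fits of this kind, which were added after the data had been seen. Without Ctrl library 2, Ctrl library 6 or Sox2 cKO library 5, these fits called 36.2%, 17.4% and 23.3% of all genes.

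**Figure D3:**
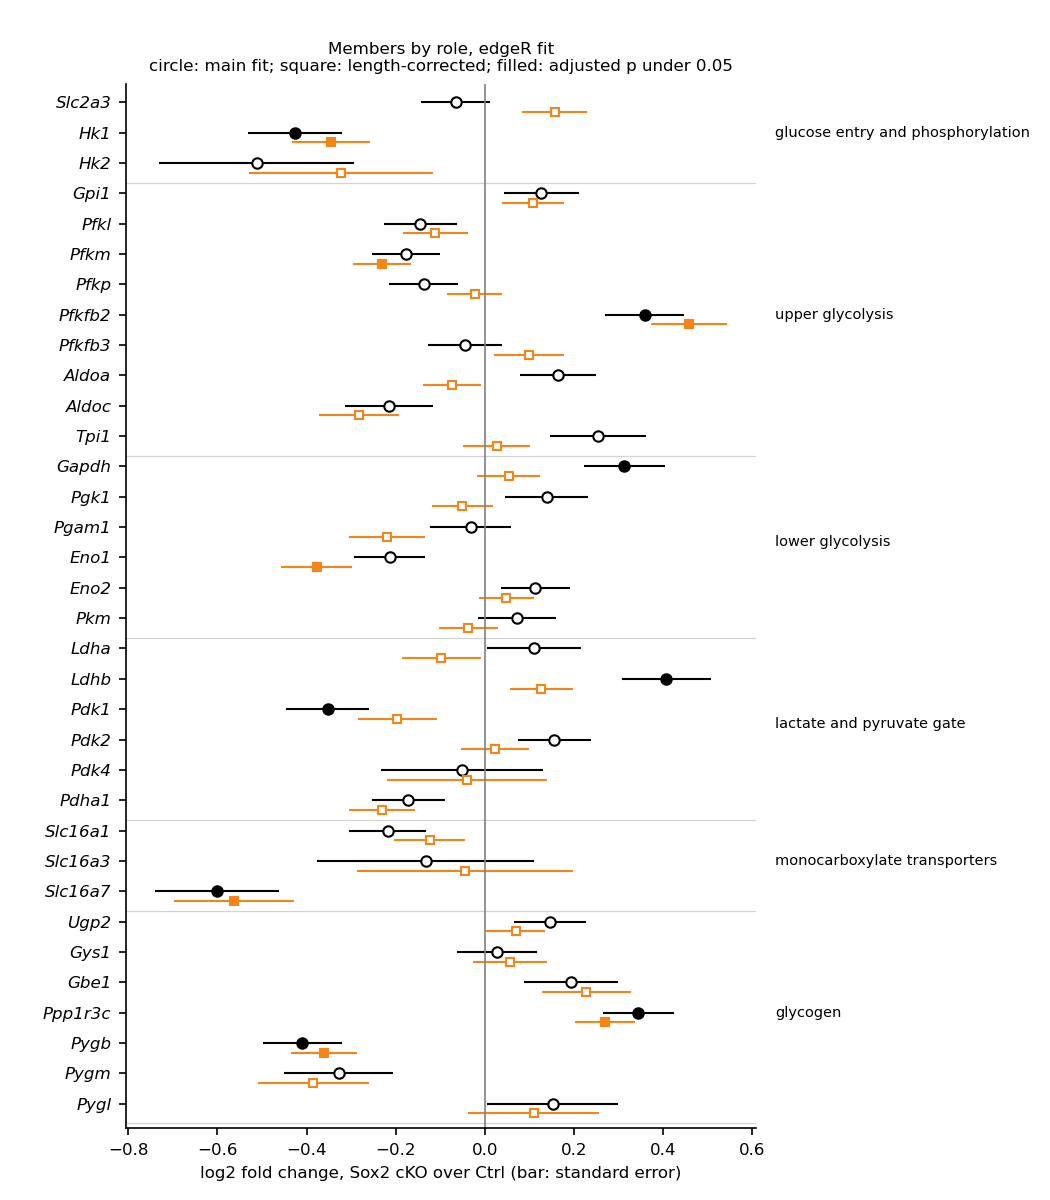
Log2 fold change of the 34 members (Sox2 cKO over Ctrl, bars are standard errors) in the edgeR fit (circles) and with the trend with gene length removed (squares), grouped by role. Filled symbols have an adjusted p under 0.05, which holds for 8 circles and 7 squares.

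Glucose enters cells through transporters and is trapped by hexokinase. Of the 3 members of this step, Hk1 was lower and 0 were higher (0 at an unadjusted p under 0.05 and 0 with DESeq2). Hk1 (ENSMUSG00000037012, chromosome 10, 62268855 to 62379908, minus strand), the hexokinase of neural tissue, measured 289, 357 and 354 CPM in Ctrl and 227, 248 and 269 CPM in Sox2 cKO. The highest Sox2 cKO library lay below the lowest Ctrl library. The means were 333 ± 38.5 CPM in Ctrl and 248 ± 20.9 CPM in Sox2 cKO (SD, n = 3 each), 25.6% lower (log2 fold change -0.43 ± 0.11, adjusted p = 0.021), and with the length correction the log2 fold change was -0.35, adjusted p = 0.035. Hk2, the inducible hexokinase, measured 4.89, 8.77 and 8.01 CPM in Ctrl and 5.58, 4.3 and 5.36 CPM in Sox2 cKO. The groups overlapped through Ctrl library 2, and the log2 fold change of -0.51 did not pass the test (adjusted p = 0.11). The ratio of Hk1 to Hk2 FPKM was 76.2, 52.5 and 56.9 in Ctrl and 52.5, 74.3 and 64.7 in Sox2 cKO, with overlapping groups. Slc2a3, the neuronal glucose transporter, had a log2 fold change of -0.07 (adjusted p = 0.56) and, as the longest member at 6253 bases, one of 0.16 with the length correction.

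In upper glycolysis, 1 of 9 members was higher and 0 were lower in edgeR (1 at an unadjusted p under 0.05, and 1, Pfkm, with DESeq2). Pfkfb2 (ENSMUSG00000026409, chromosome 1, 130689182 to 130729253, minus strand) makes fructose 2,6-bisphosphate, the activator of phosphofructokinase. It measured 19.9, 18.3 and 18.8 CPM in Ctrl and 24.8, 24.7 and 23.5 CPM in Sox2 cKO. All Sox2 cKO libraries were above all Ctrl libraries, by a mean of 28.2% (log2 fold change 0.36 ± 0.09, adjusted p = 0.02). Its fold change was larger with the length correction (0.46, adjusted p = 0.019). Pfkfb3, the more abundant enzyme of the same kind, measured 91, 78.9 and 90.9 CPM in Ctrl and 80.2, 88.2 and 84.4 CPM in Sox2 cKO, with overlapping groups (log2 fold change -0.05, adjusted p = 0.72). The ratio of Pfkfb3 to Pfkfb2 FPKM was 4.07, 3.84 and 4.29 in Ctrl and 2.87, 3.17 and 3.19 in Sox2 cKO, without overlap.

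The 3 phosphofructokinase genes encode the subunits of the enzyme that commits sugar to glycolysis. The muscle-type subunit Pfkm measured 525, 545 and 543 CPM in Ctrl and 476, 466 and 487 CPM in Sox2 cKO. Its groups did not overlap, but its adjusted p was 0.11 at a log2 fold change of -0.18, and 0.045 at -0.23 with the length correction. The platelet-type subunit Pfkp measured 320.0, 345 and 344 CPM in Ctrl and 304, 302 and 311 CPM in Sox2 cKO, also without overlap (log2 fold change -0.14, adjusted p = 0.21). The liver-type subunit Pfkl measured 110.3, 114 and 118 CPM in Ctrl and 111, 95.4 and 104 CPM in Sox2 cKO, with overlap (log2 fold change -0.14, adjusted p = 0.22). The mixture of subunits was nearly the same in both groups. Pfkm made 64.5% ± 0.443 of their FPKM in Ctrl and 63.9% ± 0.373 in Sox2 cKO, and the Pfkm to Pfkp ratio was 2.66, 2.56 and 2.56 in Ctrl and 2.53, 2.5 and 2.53 in Sox2 cKO. The Pfkl to Pfkp ratio was 0.431, 0.414 and 0.43 in Ctrl and 0.457, 0.396 and 0.417 in Sox2 cKO. Skeletal muscle markers were highest in Sox2 cKO libraries 1 and 5 and lowest in Sox2 cKO library 3 and Ctrl libraries 6 and 4. Any part of muscle RNA in the values of Pfkm was not tested.

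Aldolase splits the 6-carbon sugar. The widespread form Aldoa measured 1140.0, 1008 and 1000.2 CPM in Ctrl and 1182, 1151 and 1195 CPM in Sox2 cKO, higher in every Sox2 cKO library (log2 fold change 0.16, adjusted p = 0.18). The astrocyte-enriched form Aldoc measured 1612, 1513 and 1833 CPM in Ctrl and 1487, 1325 and 1459 CPM in Sox2 cKO, lower in every Sox2 cKO library (log2 fold change -0.21, adjusted p = 0.13). Neither passed the test. The ratio of Aldoa to Aldoc FPKM was 1.27, 1.2 and 0.981 in Ctrl and 1.43, 1.56 and 1.47 in Sox2 cKO, without overlap. Gpi1 and Tpi1, which interconvert the sugar phosphates, had log2 fold changes of 0.13 (adjusted p = 0.29) and 0.25 (adjusted p = 0.11).

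In lower glycolysis, which yields ATP and pyruvate, 1 of 6 members was higher and 0 were lower in edgeR (1 at an unadjusted p under 0.05, and 1, Eno1, with DESeq2). Gapdh (ENSMUSG00000057666, chromosome 6, 125161715 to 125166467, minus strand), the dehydrogenase often used as a reference gene, measured 1338, 1166 and 1118 CPM in Ctrl and 1490.1, 1517 and 1492 CPM in Sox2 cKO. Sox2 cKO libraries were all above Ctrl library 2, the highest of the Ctrl libraries, and the mean was 24.2% higher (log2 fold change 0.31 ± 0.09, adjusted p = 0.034). With the length correction the difference was 0.05 (adjusted p = 0.63). Pgk1, Pgam1 and Pkm had log2 fold changes of 0.14, -0.03 and 0.07, with adjusted p-values of 0.29, 0.82 and 0.57.

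The enolases had fold changes of opposite sign, and neither passed the edgeR test. In other fits of all 6 libraries, Eno1 was called lower by DESeq2 and with the correction for length or for GC content. Eno1, the non-neuronal form, measured 642, 705 and 702 CPM in Ctrl and 591, 579 and 597 CPM in Sox2 cKO, and all Sox2 cKO libraries were lower (log2 fold change -0.21, adjusted p = 0.075, and -0.38, adjusted p = 0.022, with the length correction). Eno2, the neuronal form, measured 870.1, 859.9 and 843 CPM in Ctrl and 936, 913 and 936 CPM in Sox2 cKO, and all Sox2 cKO libraries were higher (log2 fold change 0.11, adjusted p = 0.29). The ratio of Eno1 to Eno2 FPKM was 1.02, 1.13 and 1.15 in Ctrl and 0.871, 0.874 and 0.881 in Sox2 cKO, so that Eno1 was the larger part in every Ctrl library and Eno2 in every Sox2 cKO library. Eno1 made 52.3% ± 1.64 of their FPKM in Ctrl and 46.7% ± 0.138 in Sox2 cKO. Neuron markers, of which 1 of 10 was lower and 0 were higher in edgeR (2 at an unadjusted p under 0.05 and 2 with DESeq2), summed to between 1507 and 1730.1 FPKM in Ctrl and between 1780.2 and 1839.6 FPKM in Sox2 cKO. FPKM is not scaled by TMM as CPM is. In the edgeR fit the median log2 fold change of these markers was 0.0093. With the length correction it was 0.055, and 1 marker was higher and 0 were lower.

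Pyruvate is turned to lactate by lactate dehydrogenase or enters mitochondria through the pyruvate dehydrogenase complex, which the Pdk kinases inhibit. Of these 6 members, 1 was higher and 1 was lower. Ldhb (ENSMUSG00000030246, chromosome 6, 142490249 to 142507957, minus strand), the heart-type subunit that favors pyruvate, measured 527, 442 and 415 CPM in Ctrl and 626, 614 and 596 CPM in Sox2 cKO. The groups did not overlap, and the mean was 32.6% higher in Sox2 cKO (log2 fold change 0.41 ± 0.10, adjusted p = 0.02). Ldhb is the shortest member, at 1304 bases, and with the length correction its difference was 0.13 (adjusted p = 0.24). Ldha, the muscle-type subunit, measured 102, 99.1 and 106 CPM in Ctrl and 129.9, 102 and 99.7 CPM in Sox2 cKO, with Sox2 cKO library 1 above all others (log2 fold change 0.11, adjusted p = 0.46). That library also had the highest summed FPKM of endothelial, neutrophil, oligodendrocyte, microglia and Schwann cell markers. Any part of these cells in the values of Ldha was not tested. The ratio of Ldha to Ldhb FPKM was 0.143, 0.165 and 0.189 in Ctrl and 0.153, 0.123 and 0.124 in Sox2 cKO, and the groups overlapped through Sox2 cKO library 1.

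Pdk1 (ENSMUSG00000006494, chromosome 2, 71873224 to 71903858, plus strand), a HIF-1 target that closes the gate into mitochondria, measured 42.9, 42.7 and 49.9 CPM in Ctrl and 36.1, 33.1 and 36.9 CPM in Sox2 cKO. All Sox2 cKO libraries were below all Ctrl libraries, by a mean of 21.7% (log2 fold change -0.35 ± 0.09, adjusted p = 0.025). With the length correction the difference did not pass the test (log2 fold change -0.20, adjusted p = 0.15). Pdk2, the most abundant kinase, measured 99.3, 101 and 95.2 CPM in Ctrl and 106, 104 and 119.8 CPM in Sox2 cKO, slightly higher in every Sox2 cKO library (log2 fold change 0.16, adjusted p = 0.18). Pdk4 measured 23.6, 21.3 and 26.1 CPM in Ctrl and 15.5, 26.5 and 26.4 CPM in Sox2 cKO, where Sox2 cKO library 1 was below all others and the remaining pair was not (log2 fold change -0.05, adjusted p = 0.86). The ratio of Pdk4 to Pdk2 FPKM was 0.154, 0.135 and 0.176 in Ctrl and 0.0938, 0.165 and 0.142 in Sox2 cKO, with overlap. Pdha1, the catalytic subunit of the complex, had a log2 fold change of -0.17 (adjusted p = 0.14).

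Lactate crosses membranes through the monocarboxylate transporters MCT1 (Slc16a1), MCT2 (Slc16a7) and MCT4 (Slc16a3), and 1 of these 3 members was lower and 0 were higher (0 at an unadjusted p under 0.05 and 0 with DESeq2). Slc16a7 (ENSMUSG00000020102, chromosome 10, 125219270 to 125389465, minus strand), the high-affinity transporter of neurons, measured 7.67, 9.35 and 8.06 CPM in Ctrl and 5.27, 5.53 and 5.74 CPM in Sox2 cKO. Its Sox2 cKO libraries were all lower, by a mean of 34.1%, which was the largest fold change among the called members (log2 fold change -0.60 ± 0.14, adjusted p = 0.018, and -0.56, adjusted p = 0.029 with the length correction). Slc16a1, found in oligodendrocytes, endothelium and astrocytes, measured 82, 74 and 89.7 CPM in Ctrl and 70.1, 73.6 and 67.6 CPM in Sox2 cKO. Its groups did not overlap, by a narrow gap between Ctrl library 4 and Sox2 cKO library 3 (log2 fold change -0.22, adjusted p = 0.089). The ratio of Slc16a1 to Slc16a7 FPKM was 9.15, 6.77 and 9.52 in Ctrl and 11.4, 11.4 and 10.1 in Sox2 cKO, without overlap. Slc16a3, the glial export transporter, had the lowest level of all members, at 0.748 FPKM (log2 fold change -0.13, adjusted p = 0.71).

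Of the 7 glycogen members, 1 was higher and 1 was lower. Ppp1r3c (ENSMUSG00000067279, chromosome 19, 36731731 to 36736653, minus strand) encodes PTG, the subunit that targets protein phosphatase 1 to glycogen and favors its synthesis. It measured 68.8, 62.9 and 69.7 CPM in Ctrl and 91.2, 84.1 and 80.5 CPM in Sox2 cKO. The groups did not overlap, and the mean was 27.0% higher in Sox2 cKO (log2 fold change 0.34 ± 0.08, adjusted p = 0.017, and 0.27, adjusted p = 0.032 with the length correction). Pygb (ENSMUSG00000033059, chromosome 2, 150786735 to 150831758, plus strand), which releases glucose 1-phosphate from glycogen, measured 542, 638 and 629 CPM in Ctrl and 443, 457 and 461 CPM in Sox2 cKO. The groups did not overlap, and the mean was 24.7% lower in Sox2 cKO (log2 fold change -0.41 ± 0.09, adjusted p = 0.015, and -0.36, adjusted p = 0.021 with the length correction).

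Pygm, the muscle-type phosphorylase also made by astrocytes, measured 183, 237 and 228 CPM in Ctrl and 157, 162 and 198 CPM in Sox2 cKO. Sox2 cKO library 5 lay above Ctrl library 2, so the groups overlapped (log2 fold change -0.33, adjusted p = 0.074). Without that library edgeR called Pygm lower (adjusted p = 0.044), and also without Ctrl library 2 (adjusted p = 0.0092). Skeletal muscle markers were highest in Sox2 cKO library 5 and next highest in Sox2 cKO library 1, where Pygm was lowest. Any part of muscle RNA in the values of Pygm was not tested. The ratio of Pygb to Pygm FPKM was 2.18, 1.98 and 2.03 in Ctrl and 2.08, 2.08 and 1.71 in Sox2 cKO, with overlap. Pygl, the liver-type phosphorylase, measured 7.67, 10.6 and 7.97 CPM in Ctrl and 9.71, 9.89 and 9.6 CPM in Sox2 cKO, with overlap (log2 fold change 0.15, adjusted p = 0.47). The ratio of Pygb to Pygl FPKM was 54.1, 46.1 and 60.4 in Ctrl and 35, 35.4 and 36.8 in Sox2 cKO, without overlap. Gys1, which lengthens the glycogen chains, measured 21, 22.2 and 19.99 CPM in Ctrl and 21.7, 20.5 and 22.2 CPM in Sox2 cKO, with overlap (log2 fold change 0.03, adjusted p = 0.85). The ratio of Gys1 to Pygb FPKM was 0.0411, 0.0369 and 0.0338 in Ctrl and 0.0519, 0.0476 and 0.0512 in Sox2 cKO, without overlap. Gbe1, the branching enzyme, and Ugp2, which makes the UDP-glucose that is polymerized, had log2 fold changes of 0.19 (adjusted p = 0.2) and 0.15 (adjusted p = 0.2).

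**Figure D4:**
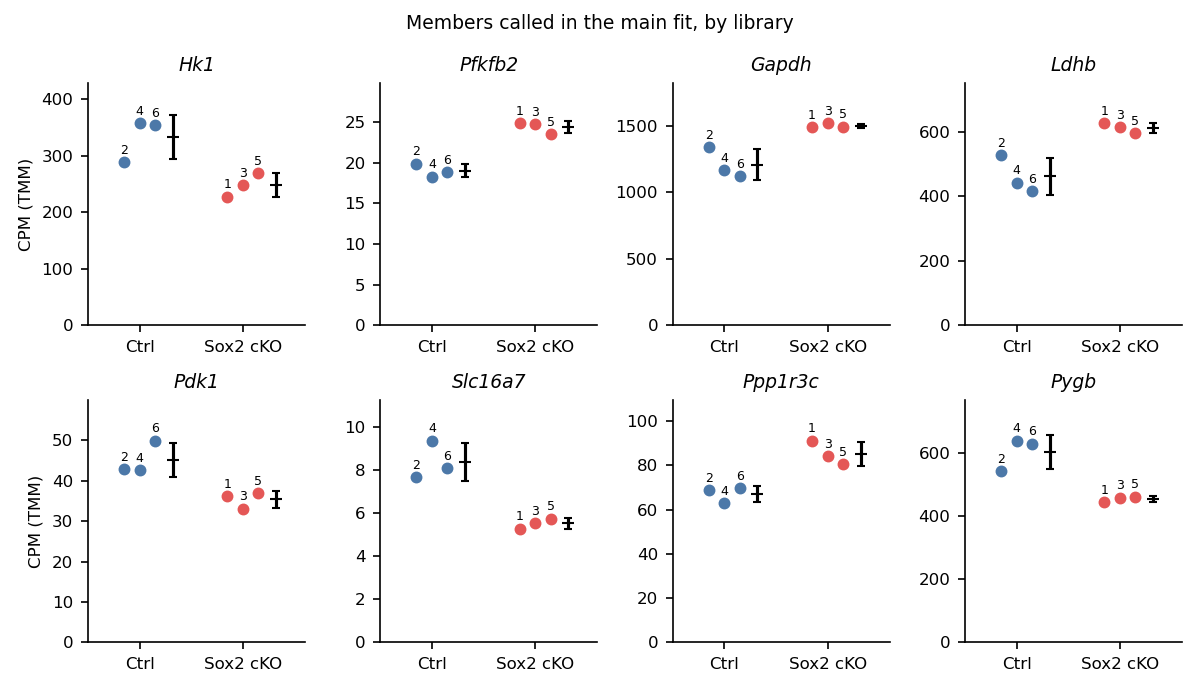
CPM of the 8 called members in each library, with the library number beside its point and the mean ± SD (n = 3) as a bar, on axes that start at 0. Hk1, Pdk1, Slc16a7 and Pygb are lower and Pfkfb2, Gapdh, Ldhb and Ppp1r3c are higher in all 3 Sox2 cKO libraries, with no overlap between the groups.

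The 12 ratios of related members given above were compared because a ratio within a library does not depend on how the libraries are scaled. The groups did not overlap for 7 of them. Of single genes tested, 44.7% had groups apart, and the share over other pairs of genes was not computed. The 7 are not separate results, because Pygb enters both Gys1/Pygb and Pygb/Pygl. In these 2 and in Pfkfb3/Pfkfb2, the partner of the called member had a small log2 fold change (Gys1 0.03, Pygl 0.15, Pfkfb3 -0.05). The log2 ratio of Eno1 to Eno2 was 0.13 ± 0.0948 in Ctrl and -0.19 ± 0.00803 in Sox2 cKO (SD, n = 3), a difference of -0.33. That of Aldoa to Aldoc was 0.19 ± 0.196 in Ctrl and 0.57 ± 0.065 in Sox2 cKO, a difference of 0.38. Within glycogen metabolism, the log2 ratio of Gys1 to Pygb was -4.75 ± 0.141 in Ctrl and -4.32 ± 0.0677 in Sox2 cKO, a difference of 0.43, and that of Pygb to Pygl was 5.73 ± 0.197 in Ctrl and 5.16 ± 0.0376 in Sox2 cKO, a difference of -0.58. For Pfkfb3 to Pfkfb2 the difference was -0.40, for Slc16a1 to Slc16a7 it was 0.38, and for Pfkm to Pfkp it was -0.04. In an exact two-sided permutation test each of these 7 had p = 0.1, the smallest that 3 against 3 libraries allow, and the adjusted p over the 12 pairs was 0.17, so none could pass the threshold. With the length correction the difference was 0.21 for Aldoa to Aldoc, -0.43 for Eno1 to Eno2 and -0.21 for Pfkm to Pfkp.

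**Figure D5:**
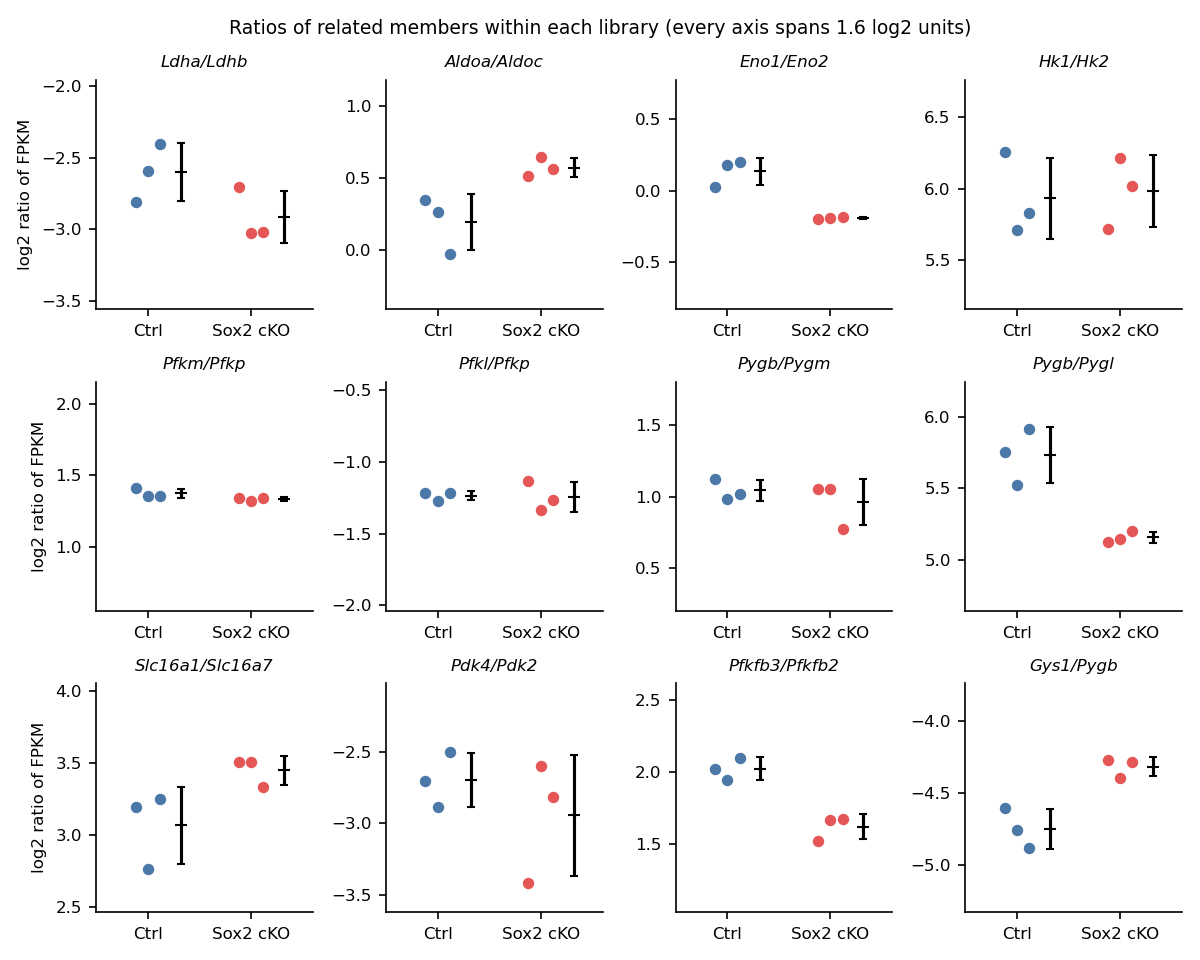
Log2 ratio of FPKM of 2 members within each library, for the 12 pairs, with mean ± SD (n = 3) as a bar beside the points of each group. The groups are apart for 7 pairs, among them Eno1/Eno2, Aldoa/Aldoc, Pygb/Pygl and Gys1/Pygb, and overlap for 5, among them Ldha/Ldhb and Hk1/Hk2.

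Neighbouring pathways were read in the same fit. Over 7 lists, 97 of 105 genes were tested, 16 were higher and 13 were lower, or 29.9% against the background of 24.6%. With the length correction 15 of the 97 were called, 6 higher and 9 lower, or 15.5% against 13.1%. Of the 17 other glycolysis genes 12 were tested and 3 were higher, or 1 with the length correction. Eno3, the muscle enolase, measured 4.67, 3.24 and 3.23 CPM in Ctrl and 10.2, 6.11 and 10.2 CPM in Sox2 cKO (log2 fold change 1.24 ± 0.23, adjusted p = 0.013), and its highest libraries, Sox2 cKO 1 and 5, were those with the most RNA of skeletal muscle markers. Any part of muscle RNA in the values of Eno3 was not tested. Of the other glycolysis genes 0 were lower (0 at an unadjusted p under 0.05 and 0 with DESeq2).

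Of 18 other pyruvate and lactate genes, 3 were higher and 2 were lower. Ldhd, which oxidizes D-lactate, measured 12.9, 9.44 and 7.82 CPM in Ctrl and 18.5, 16.8 and 15.7 CPM in Sox2 cKO (log2 fold change 0.76 ± 0.17, adjusted p = 0.016). Pdhb, a subunit of pyruvate dehydrogenase, measured 168, 132 and 123 CPM in Ctrl and 206, 196 and 195 CPM in Sox2 cKO (log2 fold change 0.50 ± 0.11, adjusted p = 0.017). Pdp2, a phosphatase that reactivates that complex, measured 12.8, 15.5 and 17.2 CPM in Ctrl and 6.85, 9.21 and 10.4 CPM in Sox2 cKO (log2 fold change -0.78 ± 0.17, adjusted p = 0.015). All 3 had groups that did not overlap, and Ldhd and Pdp2 were also called with the length correction.

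Of 22 other glycogen genes 20 were tested, 5 were lower, and 0 were higher (3 at an unadjusted p under 0.05 and 0 with DESeq2). Ppp1r3g, another glycogen-targeting subunit of protein phosphatase 1, measured 3.59, 4.61 and 8.06 CPM in Ctrl and 2.99, 3.14 and 2.46 CPM in Sox2 cKO (log2 fold change -0.92 ± 0.28, adjusted p = 0.04). Gsk3b, a kinase that inhibits glycogen synthase among many substrates, measured 315, 449.7 and 432 CPM in Ctrl and 198, 245 and 283 CPM in Sox2 cKO (log2 fold change -0.72 ± 0.16, adjusted p = 0.015). Both were also called with the length correction, as was Pgm1 (phosphoglucomutase), whereas Phka1 (a phosphorylase kinase subunit) was not.

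Of 16 TCA cycle genes, 6 were higher and 1 was lower. Idh3g, an isocitrate dehydrogenase subunit, measured 109, 87.1 and 86 CPM in Ctrl and 135, 137 and 132 CPM in Sox2 cKO (log2 fold change 0.52 ± 0.10, adjusted p = 0.013). Sdhd, a succinate dehydrogenase subunit, measured 77.7, 59.7 and 60.4 CPM in Ctrl and 95.2, 92.9 and 84.2 CPM in Sox2 cKO (log2 fold change 0.46 ± 0.11, adjusted p = 0.018). Ogdh, of the oxoglutarate dehydrogenase complex, measured 341, 410.2 and 398 CPM in Ctrl and 273, 297 and 326 CPM in Sox2 cKO (log2 fold change -0.36 ± 0.10, adjusted p = 0.03). With the length correction only Idh3g of these 16 was called. Of 8 pentose phosphate genes, Tkt, the transketolase, was lower at 243, 273 and 296 CPM in Ctrl and 212, 194 and 219.7 CPM in Sox2 cKO (log2 fold change -0.38 ± 0.09, adjusted p = 0.022), and 0 were higher (1 at an unadjusted p under 0.05 and 0 with DESeq2).

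Of 9 genes of the NADH shuttles, which carry the reducing power of glycolysis into mitochondria, 2 were higher and 1 was lower. Gpd2, of the glycerol phosphate shuttle, measured 116, 135 and 134 CPM in Ctrl and 76.6, 85 and 84.1 CPM in Sox2 cKO (log2 fold change -0.65 ± 0.09, adjusted p = 0.01). Mdh1, of the malate-aspartate shuttle, measured 658, 495 and 496 CPM in Ctrl and 745, 759 and 735 CPM in Sox2 cKO (log2 fold change 0.44 ± 0.11, adjusted p = 0.024), and Slc25a11, its oxoglutarate carrier, measured 76.8, 69.3 and 68.2 CPM in Ctrl and 90.7, 84.6 and 85.3 CPM in Sox2 cKO (log2 fold change 0.28 ± 0.08, adjusted p = 0.028). With the length correction only Gpd2 of the 9 was called.

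Of 15 HIF-1 regulators and targets outside glycolysis 14 were tested, 2 were higher, 3 were lower and 9 were not called. Of all genes tested, 12.2% were called higher and 12.4% lower. The median log2 fold change of the list was -0.07. Hif1a, the oxygen-regulated subunit of the factor, measured 87.8, 98.5 and 93.4 CPM in Ctrl and 69.5, 72.2 and 70.7 CPM in Sox2 cKO (log2 fold change -0.40 ± 0.07, adjusted p = 0.013). Hif1an, which inhibits it, measured 75.2, 78.6 and 80.1 CPM in Ctrl and 62.2, 64.1 and 66 CPM in Sox2 cKO (log2 fold change -0.28 ± 0.07, adjusted p = 0.022). The targets Vegfa and Ankrd37 measured 72.7, 57.1 and 57.9 CPM in Ctrl and 112, 92.6 and 73.4 CPM in Sox2 cKO (log2 fold change 0.57 ± 0.15, adjusted p = 0.024), and 0.987, 1.04 and 0.676 CPM in Ctrl and 3.43, 2.15 and 1.89 CPM in Sox2 cKO (log2 fold change 1.44 ± 0.31, adjusted p = 0.015). The 3 called regulators were lower, and these 2 targets higher, in every Sox2 cKO library than in any Ctrl library. The other targets tested were not called in the edgeR fit. Hif1a, Vegfa and Ankrd37 were still called with the length correction, whereas Hif1an (log2 fold change -0.06, adjusted p = 0.52) was not. Egln1 and Vhl are named after their values were seen. Egln1, a prolyl hydroxylase that marks HIF-1α for degradation, was the other lower gene (log2 fold change -0.25 ± 0.08, adjusted p = 0.045) and lost its call with the correction (adjusted p = 0.052). Vhl, part of the ubiquitin ligase for HIF-1α, was called lower with the correction (log2 fold change -0.29, adjusted p = 0.041) but not without it (adjusted p = 0.071).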

How the data were processed

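Poly(A) libraries (NEBNext Ultra Directional kit, single-end reads) of 3 Sox2 cKO and 3 Ctrl spinal cords were analysed. The authors aligned reads to mm10 with STAR 2.5 and deposited raw counts per gene from HTSeq 0.6.1. Whether counting used the strand is not given in the sources used here. They also deposited FPKM, made from those counts, gene length and library total. The lengths recovered from both tables were whole numbers, within 0.05, for all 24442 genes with a count. RNA integrity numbers are above a minimum that differs between the labels and the methods.

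The columns carry numbers that match no sample label. Groups were assigned from the numbers the study gives its mice, and the group means of normalized counts equalled those the study lists under the group names for all 1999 genes listed, and for 0 with the groups exchanged. There were 0 further columns. No label ties a column to a replicate or a sex. The study's methods name both sexes in each group, in the same proportion. The sex of each column was not derived from the counts, and the fit held no term for it.

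Names and positions came from GENCODE M21 (GRCm38, the build of mm10), which matched 34490 of 35275 identifiers. The test was that of edgeR 4.0.16 in R 4.3.3 (filterByExpr, TMM, quasi-likelihood test, no covariate, Benjamini-Hochberg adjustment over 16137 genes, threshold 0.05). Standard errors were derived from each fold change and its test statistic. The common biological coefficient of variation was 0.119. Ratios were tested with SciPy 1.17.1. Alternatives were DESeq2 1.42.0, its size factors, upper quartile scaling, no filter, at least 10 counts in every library, limma 3.58.1 on log2 FPKM with pseudocounts of 1 and 0.1 (mean FPKM at least 0.5), lowess corrections (span 0.3) for length or GC content, near-identical copies summed (95% identity over 50% of their length, BLAST 2.17.0), and leaving out each library. The fits were tested on simulated data. Annotated copies held at most 0.377% of a member's counts.

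The members, lists and tests were chosen with earlier results of these data known. All members are named, with values in every library for Sox2, the called members and the members of each compared pair. In the other lists, the called genes with the largest 2 rises and 2 falls are given with values, apart from some that are not reported here. Fold changes the authors computed were not used.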

Additional observations from a re-analysis of the deposited data

How the results depend on the processing

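Of 544 refitted fold changes of the 34 members, 467 kept direction and side of the threshold, 36 lost a call, 18 gained one and 23 changed sign, all 23 in members not called. The called members kept their direction in every alternative. Sox2 stayed called in every alternative. The cause of the changes below was not tested. The length correction left 2109 genes, 2 higher members and 15 genes of the other lists called, and fold changes became 0.16 for Slc2a3, 0.099 for Pfkfb3, -0.074 for Aldoa, -0.050 for Pgk1, -0.037 for Pkm and -0.097 for Ldha, while the ratio differences became -0.023 for Hk1/Hk2 and 0.024 for Pygb/Pygm. DESeq2 called 7 members lower. Upper quartile scaling gave a member median of 0.0050 and Pgam1 0.011. Limma on FPKM gave a median over all genes of 0.09 (pseudocount 1) or 0.11 (pseudocount 0.1), against 0.02 in edgeR, and 2670 of its 3585 calls with a pseudocount of 1 were higher (74.5%, against 49.4% of the edgeR calls). It gave member medians of 0.058 and 0.060, Slc2a3 0.028 and 0.030, Pfkfb3 0.052 and 0.055, Pgam1 0.064 and 0.064, and Pdk4 0.0088 and 0.0057. It called Pdk2 higher and did not call Pdk1. GC correction gave Gys1 -0.019.

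Leaving out each library in turn, with edgeR or DESeq2, called 8 to 6119 genes, 0 to 8 members higher and 0 to 10 members lower, with member medians from -0.075 to 0.023 and Sox2 from -3.08 to -2.56. The fewest were called without Sox2 cKO library 1 (8 genes) and without Ctrl library 4 (26), where 4945 and 4758 genes had an unadjusted p under 0.05 and DESeq2 called 2342 and 1981. The groups were apart for 7 to 8 of the 12 ratios. Ranges that crossed 0 were -0.11 to 0.024 for Pgam1, -0.17 to 0.16 for Pdk4, -0.0070 to 0.066 for Gys1, -0.020 to 0.18 for Ldha and -0.29 to 0.081 for Slc16a3, and for ratios -0.067 to 0.21 for Hk1/Hk2, -0.066 to 0.038 for Pfkl/Pfkp and -0.13 to 0.014 for Pygb/Pygm. No paired analysis was possible because the columns carry no replicate numbers. The least counted member, Slc16a3, had between 62 and 95 counts a library.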
